A study of Homo sapiens with 27 samples.

Results

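Human H1 embryonic stem cells, an established line, were differentiated toward photoreceptor progenitors on plates coated with recombinant laminin, and bulk RNA was sequenced at day 22. Laminin 523 (LN523, α5, β2 and γ3 chains) was compared with laminin 323 (LN323, α3, β2 and γ3 chains), 2 isoforms that differ in the α chain. The comparison holds 6 of the 27 libraries of the series, 3 from LN523 and 3 from LN323 cultures, taken by the laminin, the day and the lane given in the library names, and it is described across genes and pathways. Within each laminin the libraries carry lanes 1, 2 and 3, which equal the replicate numbers, and libraries of one lane were treated as a pair. All 6 libraries come from the same unmodified line and the same media, neural induction medium from day 2 and then photoreceptor differentiation medium from day 9. The labels give the coatings as laminin 323 alone and as laminin 523 together with laminin 323, whereas the study's methods give both as mixtures with laminin 521, so the partner laminin of each group is stated in 2 ways. The library names also carry day 20 where the label field gives day 22. The laminins were purified from clones of HEK293 cells, a human embryonic kidney line. No source used here says whether libraries of one group were separate cultures, so the p-values measure the spread between these libraries, which may be technical.

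Laminins are trimeric proteins of basement membranes, and their α chain carries the globular domain that most integrins bind. The γ3 isoforms lie in the matrix around photoreceptors. In the developing retina, progenitors that express eye field factors such as RAX and PAX6 leave the cell cycle under proneural basic helix-loop-helix factors such as ATOH7 and NEUROD1, and photoreceptor precursors then switch on OTX2, CRX and NRL. Retinoid and thyroid hormone receptors, RXRG and THRB among them, take part in cone photoreceptor specification.

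The depth was 34767018 to 41764735 counts per library on LN523 and 25620624 to 42655360 on LN323, lowest in the lane 1 library of LN323. Lane accounted for 77.9% of the variation of log2 CPM (counts scaled to a library of 1000000), over 15901 genes with a mean of at least 1 CPM. Laminin accounted for 6.33%. The remainder, by which the laminin difference varied between lanes, was larger, at 15.8%. Both lane 2 libraries stood apart from the other 4. The smallest distance among the 6 libraries was that between the lane 2 library of LN523 and the lane 2 library of LN323 (0.335 log2 units). Lane differences passed an adjusted p of 0.05 in 3017 of 38609 genes, or 7.81%, in edgeR's quasi-likelihood test of the 9 libraries of day 22, which include 3 of laminin 521 (LN521). Whether lane stands for a culture, a preparation or the sequencing cannot be told apart. The LN521 libraries entered the fit and shared its lane terms and its estimate of the spread, so they also bear on the fitted differences between LN523 and LN323. In lane 1 of LN521, POU5F1 of pluripotent cells was at 76.2 CPM, whereas it was at 2.33 CPM or less in the 6 libraries compared.

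**Figure D1:**
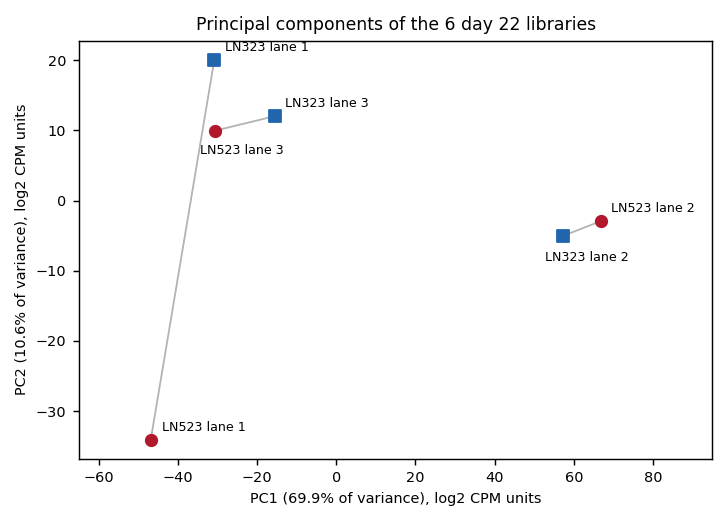
First and second principal components of log2 CPM in the 6 libraries of day 22, with circles for LN523, squares for LN323 and a line joining the libraries of one lane. The first component (69.9% of the variance) places both lane 2 libraries at 57.3 and 66.7 and the other 4 below 0, and the second (10.6%) places LN523 lane 1 at -34.0.

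The cells are labelled photoreceptor progenitors, and the markers that define that label were low at day 22. CRX was at 8.16, 2.40 and 4.97 CPM in LN523 lanes 1, 2 and 3 and at 7.09, 1.497 and 5.11 CPM in LN323 lanes 1, 2 and 3. RCVRN, which encodes the photoreceptor calcium sensor recoverin, did not exceed 0.221 CPM in any of the 6. NRL, the rod determinant, ranged from 0.786 to 2.13 CPM. Optic cup genes were far higher: PAX6, an eye field factor, ranged from 394 to 863 CPM, the melanosome protein PMEL from 597 to 1481 CPM, and RAX, another eye field factor, reached 281 CPM. The groups overlapped for each of these genes, and none passed the test between laminins. The fibrillar collagen COL3A1, a mesenchyme marker, ranged from 417 to 3339 CPM, highest in lane 2 of both laminins (edgeR adjusted p = 1 between laminins, and 0.0241 when only the 6 libraries were fitted). At day 22 the cultures carried optic cup transcripts with mesenchymal ones beside them. In bulk RNA, fewer cells of a type and less RNA per cell cannot be told apart.

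Of 38609 genes tested, 5 (0.013%) had an adjusted p under 0.05 between LN523 and LN323 in edgeR's quasi-likelihood test with lane as a term. RXRG, SRD5A2 and RGS8 were lower on LN523. VAX1 and the antisense transcript FEZF1-AS1 were higher. At an unadjusted p under 0.05 there were 514 genes.

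RXRG encodes retinoid X receptor gamma, a nuclear receptor of early cones, and lies at chr1:165400922-165445355 on the minus strand (GRCh38, GENCODE 44). It was at 5.69, 7.80 and 41.8 CPM in LN523 lanes 1, 2 and 3 and at 45.8, 27.7 and 74.4 CPM in LN323 lanes 1, 2 and 3. It was lower on LN523 in every lane, by 8.03-fold, 3.56-fold and 1.78-fold, although lane 3 of LN523 lay above lane 2 of LN323, so the groups overlapped. The fitted log2 fold change was -2.07 with a standard error of 0.28 (edgeR adjusted p = 1.43e-06). This standard error (SE), like those below, was worked back from the test statistic. It draws on the spread common to all genes and does not measure the spread of the lane ratios. On LN521 it was at 1.59, 4.82 and 35.5 CPM.

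SRD5A2 encodes steroid 5-alpha-reductase 2, which converts testosterone to dihydrotestosterone, and lies at chr2:31522480-31580938 on the minus strand. It was at 3.57, 34.5 and 72.9 CPM in LN523 lanes 1, 2 and 3 and at 37.8, 58.4 and 87.1 CPM in LN323. Lane 1 of LN523 was the low library: the difference was 10.6-fold in lane 1, 1.69-fold in lane 2 and 1.19-fold in lane 3. The fitted log2 fold change was -1.68 ± 0.30 (SE, edgeR adjusted p = 0.00499). RGS8, a regulator of G-protein signalling that speeds GTP hydrolysis by Gα subunits, lies at chr1:182641816-182684587 on the minus strand. It was at 8.64, 12.1 and 39.3 CPM on LN523 and at 37.0, 21.9 and 59.4 CPM on LN323. Its fold difference was likewise widest in lane 1 (4.29-fold, against 1.81-fold and 1.51-fold), its groups overlapped, and its log2 fold change was -1.15 ± 0.23 (SE, edgeR adjusted p = 0.0185).

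The promoters of these 3 genes are shown because these are the called genes that were lower on LN523, in every lane. The sequences are those of RefSeq (GRCh38.p14), 250 bases before to 50 after the start, read on the gene's own strand, which is minus for all 3. RXRG is chr1:165445077-165445376, SRD5A2 is chr2:31580889-31581188 and RGS8 is chr1:182684538-182684837, the entry of 3 for RGS8 that holds the start of its GENCODE gene. Capitals mark CAGCTG, a palindromic E-box bound by proneural factors.
RXRG: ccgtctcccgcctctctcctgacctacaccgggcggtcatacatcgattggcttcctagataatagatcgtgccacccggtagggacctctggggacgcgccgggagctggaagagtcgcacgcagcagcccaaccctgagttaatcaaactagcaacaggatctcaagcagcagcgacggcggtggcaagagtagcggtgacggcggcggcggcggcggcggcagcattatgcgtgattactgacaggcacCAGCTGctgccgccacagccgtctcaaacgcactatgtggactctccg
SRD5A2: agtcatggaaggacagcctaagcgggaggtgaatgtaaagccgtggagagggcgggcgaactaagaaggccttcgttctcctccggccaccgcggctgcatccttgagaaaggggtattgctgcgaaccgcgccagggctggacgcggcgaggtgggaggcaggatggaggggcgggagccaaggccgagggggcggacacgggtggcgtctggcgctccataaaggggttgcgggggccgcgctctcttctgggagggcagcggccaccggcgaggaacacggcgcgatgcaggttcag
RGS8: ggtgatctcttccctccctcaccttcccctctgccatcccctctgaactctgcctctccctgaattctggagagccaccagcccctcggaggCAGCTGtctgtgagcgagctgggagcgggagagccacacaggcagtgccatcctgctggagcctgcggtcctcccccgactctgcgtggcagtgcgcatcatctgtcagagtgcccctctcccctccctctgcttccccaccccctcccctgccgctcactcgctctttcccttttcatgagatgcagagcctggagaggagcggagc
CAGCTG occurred 1 time in the RXRG window, 2 bases after the start, and 1 time in the RGS8 window, 158 bases before it, and it was not in the SRD5A2 window. Of all 35116 promoters of this length, 17.9% held it. The homeodomain letters TAATTA (4.84% of all promoters) and TAATCC (6.36%), both searched on both strands, were in none of the 3 windows. A match here is a description of letters only.

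**Figure D2:**
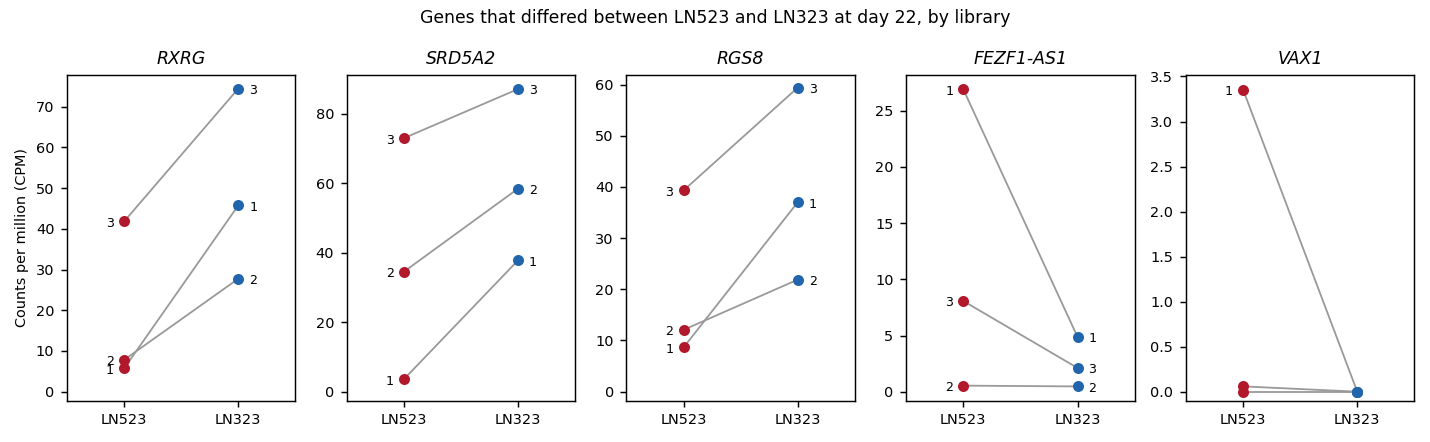
CPM of the 5 called genes in each library, LN523 in red and LN323 in blue, with a grey line joining libraries of one lane. Numbers beside points are lanes, and for VAX1 only lane 1 of LN523 is numbered. The lines of RXRG, SRD5A2 and RGS8 all run upward from LN523 to LN323, and VAX1 stands on lane 1 of LN523 alone, at 3.35 CPM.

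VAX1, a homeodomain factor of the optic stalk and ventral forebrain at chr10:117128521-117138301 (minus strand), had 139, 0 and 2 counts in LN523 lanes 1, 2 and 3 and 0 counts in each LN323 library. Lane 1 held 98.6% of the LN523 counts. Summed over the libraries, the gene was at least 44.2-fold higher on LN523, taking 3 counts over the 3 LN323 libraries as the floor (edgeR adjusted p = 0.00499). The call rests on that 1 library, and lane 1 of LN521 was high as well, at 6.27 CPM.

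FEZF1-AS1, a long noncoding RNA at chr7:122303658-122310119 on the plus strand, is transcribed opposite FEZF1, a forebrain zinc finger factor. It was at 26.9, 0.540 and 8.07 CPM in LN523 lanes 1, 2 and 3 and at 4.87, 0.468 and 2.11 CPM in LN323. Lanes 1 and 3 were 5.52-fold and 3.82-fold higher on LN523 and lane 2 was low on both (log2 fold change 1.94 ± 0.40, SE, edgeR adjusted p = 0.0365). FEZF1 itself was at 17.9, 0.0491 and 5.50 CPM on LN523 and at 4.05, 0.187 and 1.67 CPM on LN323, with a log2 fold change of 1.67 that did not pass with 9 libraries (edgeR adjusted p = 1, and 0.0144 when only the 6 libraries were fitted). The pair share 17.5% of the exon length of FEZF1-AS1, and the counting setting for strand is not given in the sources used here, so reads in the shared stretch cannot be assigned to one of them.

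The 5 calls depended on the fit and on single libraries. None of the 5 had an adjusted p under 0.05 without lane as a term (0 genes, 447 at an unadjusted p under 0.05) or after genes of low counts were removed with filterByExpr (0 of 21535 genes, 193 at an unadjusted p under 0.05). The prior degrees of freedom that edgeR estimated, which set how far a gene's spread is drawn to the common one, were 87.7 with all genes and 4.31 after that removal. All 5 genes had their widest gap between the laminins in lane 1. Leaving out lane 2 of LN523 gave 223 calls, with all 5 among them. Leaving out lane 1 of LN523 gave 2 calls, of which 1 was among the 5. Leaving out lane 3 of LN323 gave 1 call, which was among the 5. Leaving out lane 3 of LN523, lane 1 of LN323 or lane 2 of LN323 gave 0. Each of these fits kept the other libraries of that lane, LN521 among them, so the pair of LN523 and LN323 was broken there.

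When only the 6 libraries were fitted, 98 of 36409 genes (0.269%) passed, all 5 of the above among them. Of these, 16 (0.0439%) were higher and 82 (0.225%) were lower on LN523. That fit estimated an infinite prior degrees of freedom, which means that each gene's own spread over the 3 pairs received no weight, and it gave 0 calls when low counts were removed (433 of 20215 at an unadjusted p under 0.05). Only 50 of the 98 had the same sign in every lane, and 7 had groups that did not overlap. For reference, among the 15901 genes with a mean of at least 1 CPM, 9.26% were higher and 9.56% lower on LN523 in every lane, and 1.2% lay above and 0.862% below without overlap. For genes that passed only there, that adjusted p is given beside their values. A gene given with a 6-library adjusted p alone did not pass with 9 libraries.

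The lower genes with the smallest p, beyond the 3 called, included secreted and membrane ligands. EFNB2 encodes ephrin-B2, a membrane ligand of Eph receptors that marks the dorsal retina. It was at 132, 505 and 427 CPM in LN523 lanes 1, 2 and 3 and at 496, 580 and 609 CPM in LN323. Lane 1 of LN523 was again the low library, and lane 2 of LN523 lay just above lane 1 of LN323 (log2 fold change -0.88, edgeR adjusted p = 0.209, and 2.96e-08 with 6 libraries). FLRT3, a leucine-rich repeat protein that binds FGF receptors and UNC5 guidance receptors, was at 232, 442 and 395 CPM on LN523 and at 537, 493 and 635 CPM on LN323. Every LN523 library of FLRT3 lay below every LN323 library (log2 fold change -0.69, edgeR adjusted p = 0.351, and 4.36e-05 with 6 libraries). GDF10, a ligand of the transforming growth factor family, did not overlap either, at 15.7, 19.7 and 25.9 CPM against 51.2, 26.5 and 57.6 CPM (log2 fold change -1.09, edgeR adjusted p = 0.868, and 4.43e-07 with 6 libraries). DKK2, a secreted WNT modulator, was at 1.74, 13.3 and 1.60 CPM on LN523 and at 11.8, 17.0 and 7.47 CPM on LN323, with its narrowest gap in lane 2 (log2 fold change -1.47, 6-library edgeR adjusted p = 1.86e-07). The rule also named CCDC3, NUDT4 and SHD, with log2 fold changes of -0.84, -0.72 and -1.01 (edgeR adjusted p = 0.329, 0.351 and 0.811, and 5.62e-05, 0.000194 and 0.00099 with 6 libraries).

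On the higher side, FN1, which encodes the matrix glycoprotein fibronectin, was at 4680, 1641 and 4996 CPM in LN523 lanes 1, 2 and 3 and at 3092, 931 and 3531 CPM in LN323. It was low in lane 2 of both laminins and higher on LN523 within each lane (log2 fold change 0.62, edgeR adjusted p = 1, and 1.47e-06 with 6 libraries). ITGA2, the α2 chain of a collagen and laminin receptor, was at 35.5, 26.1 and 45.7 CPM against 23.0, 15.7 and 32.3 CPM and passed neither fit (0.62, 6-library edgeR adjusted p = 0.0923). ANKRD1, a cardiac ankyrin repeat protein and target of YAP, was at 129, 2.97 and 78.1 CPM on LN523 and at 78.9, 2.06 and 45.4 CPM on LN323 (0.69, 6-library edgeR adjusted p = 0.00586). These 3 genes had the same order in every lane while lane 2 was the low lane on both laminins, and the groups overlapped for all of them. CLSTN2, a calsyntenin, had little spread within a laminin, at 304, 279 and 244 CPM against 210, 195 and 182 CPM, with no overlap and a lane difference that did not pass (edgeR adjusted p = 0.773; log2 fold change 0.49, edgeR adjusted p = 1, and 0.0411 with 6 libraries). KCNJ10, a potassium channel of glia, was at 1.13 to 1.24 CPM on LN523 and at 0.0779 to 0.884 CPM on LN323. It passed neither fit (log2 fold change 2.00). HPSE2 and NEAT1 were higher in every lane at 1.40 and 0.75 on the log2 scale, as was PKD1L2. HPSE2, NEAT1 and PKD1L2 did not pass with 9 libraries (edgeR adjusted p = 0.629 for HPSE2 and 1 for NEAT1 and PKD1L2), and all 3 passed with 6 (0.00518, 0.000452 and 0.00147).

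In the gene lists, a member was counted where its mean over the 6 libraries was at least 1 CPM. Over all 15901 such genes the median log2 fold change was -0.0042, with 8143 genes below 0 and 7758 above 0. The lists were read beside these values and the 9.26% and 9.56% given earlier. A list split near evenly by sign is therefore no different from all genes. Members of a list share regulators and are not independent. Of the 36 lists, 7 kept a median below 0 and 2 above 0 when each of the 6 libraries was left out in turn. Those below were the proneural, eye field, glycolysis, retinoic acid, steroid hormone, WNT and lens lists, and those above were the cholesterol and FGF lists. The fits with a library left out kept its partner and the LN521 library of that lane, so their medians also depend on LN521.

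Proneural factors were the list with the lowest median. All 7 of the counted members had a log2 fold change below 0, 5 of 7 (71.4%) were lower on LN523 in every lane, and the median was -0.65. None passed the 9-library test, and ATOH7 was among those that passed with 6 libraries. ATOH7, which gives progenitors competence for the ganglion cell fate, was at 1.16, 11.0 and 3.13 CPM in LN523 lanes 1, 2 and 3 and at 1.64, 17.6 and 13.5 CPM in LN323. Its levels followed the lane first and the laminin second, and the groups overlapped (log2 fold change -1.09, edgeR adjusted p = 1, and 0.0154 with 6 libraries). INSM1, a zinc finger factor of differentiating neurons, was at 9.41, 7.75 and 19.4 CPM against 14.2, 13.1 and 29.3 CPM. HES6, an inhibitor of HES1, was the exception in lane 1, where it was at 13.8 CPM on LN523 and 6.78 CPM on LN323. Without lane 3 of LN323 the list median was -0.32.

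Photoreceptor fate factors had a median of -0.41, with 7 of 11 below 0 and 4 above, up to 0.34. In every lane 3 of 11 (27.3%) were lower and 1 was higher. The members given next were all below 0. RXRG was the 1 member called. NEUROD1 was at 0.0483, 2.85 and 0.591 CPM on LN523 and at 0.0779, 5.31 and 2.87 CPM on LN323, below 1 CPM in lane 1 of both (log2 fold change -1.53, edgeR adjusted p = 1). RORB, a nuclear receptor needed for rod development, was at 4.73, 26.0 and 39.5 CPM against 20.5, 43.8 and 31.6 CPM, so lane 3 ran the other way (log2 fold change -0.67, edgeR adjusted p = 1, and 0.00795 with 6 libraries). THRB was at 14.4, 47.2 and 40.7 CPM against 32.3, 42.7 and 46.1 CPM, where the gap came from lane 1 (log2 fold change -0.41). The median moved to 0.06 without lane 3 of LN323 and to -0.66 without lane 2 of LN523, and to -0.05, -0.22 and -0.09 without lane 1 of LN323, lane 2 of LN323 and lane 1 of LN523. Among ganglion cell factors 9 of 14 were below 0 and 3 (21.4%) lower in every lane, with a median of -0.13 and 2 passing with 6 libraries, ATOH7 and SNCG (edgeR adjusted p = 0.0343 for SNCG). That median ran from -0.45 without lane 1 of LN323 to 0.10 without lane 3 of LN323. POU4F2, the ganglion cell homeodomain factor downstream of ATOH7, was at 0, 0.736 and 0.532 CPM on LN523 and at 0.0779, 2.29 and 2.14 CPM on LN323, and passed neither test. The phototransduction list was near 0 (median 0.03, 2 of 13 in each direction in every lane), as were Notch pathway genes (0.05, 21 counted, 1 higher and 2 lower in every lane). DLL4, a Notch ligand of newborn neurons, was lower in every lane, at 2.65, 7.41 and 6.74 CPM against 4.60, 11.7 and 12.3 CPM (edgeR adjusted p = 1).

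**Figure D3:**
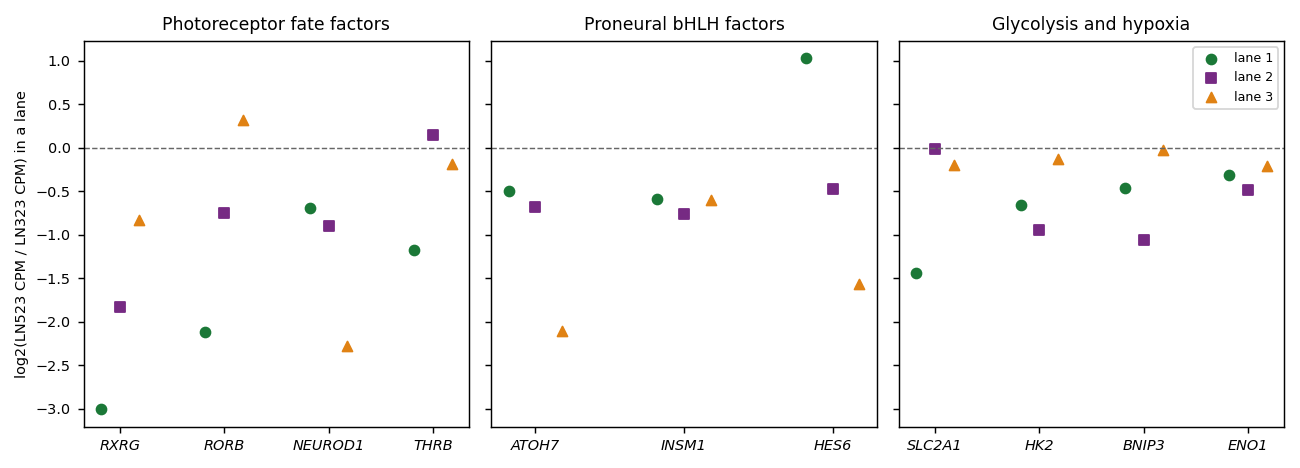
Log2 ratio of CPM on LN523 to CPM on LN323 within each lane for 3 or 4 members of each of 3 gene lists, with a dashed line at 0. RXRG, NEUROD1, ATOH7, INSM1 and all 4 glycolysis genes lie below 0 in each lane, while RORB crosses in lane 3, THRB in lane 2 and HES6 in lane 1.

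Eye field and neural retina factors had small values, and none was called in the 9-library test. Of 14 members 13 were below 0 and 4 (28.6%) were lower in every lane, with a median of -0.15, which was -0.45 without lane 1 of LN523 and -0.031 without lane 2 of LN523. HMX1, a homeodomain factor of the developing eye, was at 171, 135 and 346 CPM on LN523 and at 206, 256 and 475 CPM on LN323 (log2 fold change -0.54, edgeR adjusted p = 1, and 0.00919 with 6 libraries). RAX ran upward in lane 1 and downward in lane 2, so the list's sign does not describe it. In the forebrain list, FEZF2, a paralogue of FEZF1, was lower in every lane (log2 fold change -0.94, 0.0103 with 6 libraries in edgeR). The optic stalk list as a whole had a median of 0.05 and the forebrain list 0.16. Midbrain, hindbrain and spinal cord factors had 10 of 12 below 0 and a median of -0.50, which turned to 0.09 without lane 3 of LN323 and to 0.03 without lane 1 of LN523. HOXB1 was at 0.965, 1.62 and 0.768 CPM on LN523 and at 0.390, 5.38 and 3.73 CPM on LN323.

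Because EFNB2 and VAX1 mark opposite poles of the optic cup, 2 lists of dorsal and ventral eye genes were added after these values were seen. Of 8 dorsal genes 5 (62.5%, against 9.56% of all genes counted) were lower on LN523 in every lane. These were EFNB2, ALDH1A1, BAMBI, TBX5 and TBX2, and the median was -0.27. EFNB2 prompted the list and is counted in it, and all 8 genes were also members of earlier lists. The count is partly set by that choice and is no separate evidence beside the 9.56%. Lane differences passed in 7 of the 8. In lanes 1, 2 and 3 the list summed to 3122, 4312 and 5625 CPM on LN523. The sums were 5853, 4886 and 6479 CPM on LN323 and 777, 1937 and 6510 CPM on LN521. Of 8 counted ventral and optic stalk genes 1 was higher in every lane and the median was 0.05. ALDH1A1, the dorsal retinaldehyde dehydrogenase, was at 1779, 2948 and 3782 CPM in LN523 lanes 1, 2 and 3 and at 4068, 3352 and 4229 CPM in LN323. The gap was widest in lane 1, and the lane 3 library of LN523 lay between the LN323 libraries (log2 fold change -0.63, edgeR adjusted p = 1, and 0.00117 with 6 libraries). TBX5, a dorsal T-box factor, was at 55.9, 52.7 and 67.7 CPM against 81.0, 54.8 and 101 CPM (log2 fold change -0.37). Without lane 1 of LN323 the signs of ALDH1A1 and TBX5 reversed and the median of the dorsal list was 0.20. In that fit lane 1 of LN523 had only lane 1 of LN521 as its lane partner. ALDH1A1 and TBX5 were still lower on LN523 in lanes 2 and 3, and the part of LN521 in the reversal was not tested.

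Retinoic acid genes had 16 of 19 members below 0, 4 (21.1%) lower in every lane and a median of -0.20. The median was -0.036 without lane 1 of LN523 and -0.42 without lane 2 of LN523. RXRG was called and 3 others passed with 6 libraries, ALDH1A1, RDH10 and RARB. RDH10, which oxidises retinol, was at 31.3, 187 and 53.1 CPM on LN523 and at 92.9, 147 and 80.1 CPM on LN323, so lane 2 ran the other way (log2 fold change -0.55, edgeR adjusted p = 1, and 0.0154 with 6 libraries). RARB, named after its values were seen, is a retinoic acid receptor and direct target of retinoic acid. It was at 20.9, 138 and 21.9 CPM against 47.1, 135 and 34.3 CPM (6-library edgeR adjusted p = 0.0284). Retinoic acid was a component of the medium of both groups. Steroid and thyroid hormone genes had 10 of 14 below 0 and a median of -0.16 (from -0.34 without lane 2 of LN523 to -0.046 without lane 1 of LN323), with SRD5A2 the 1 member called and NR3C1, the glucocorticoid receptor, at 26.9, 51.1 and 56.3 CPM against 69.5, 50.2 and 69.7 CPM. The RGS list around RGS8 had a median of -0.03, with 2 of 16 in each direction in every lane.

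Glycolysis and hypoxia genes were abundant, and most of them had a log2 fold change slightly below 0. Of 29 members 25 were below 0, 14 (48.3%) were lower on LN523 in every lane against 9.56% of all genes, none was higher in every lane, and the median was -0.18. None was called in the 9-library test, and SLC2A1 and HK2 passed with 6 libraries. SLC2A1, the glucose transporter GLUT1, was at 659, 886 and 1198 CPM in LN523 lanes 1, 2 and 3 and at 1789, 895 and 1377 CPM in LN323. Its gap was 2.71-fold in lane 1 and 1.01-fold in lane 2 (log2 fold change -0.60, edgeR adjusted p = 1, and 0.00202 with 6 libraries). HK2, a hexokinase, was at 59.0, 26.3 and 68.3 CPM against 93.1, 50.8 and 74.8 CPM (log2 fold change -0.55, edgeR adjusted p = 1, and 0.0345 with 6 libraries). BNIP3, a mitochondrial target of hypoxia signalling, was at 96.7, 28.4 and 122 CPM against 133, 59.4 and 125 CPM. ENO1, an enolase, was at 1339, 1802 and 1735 CPM against 1660, 2527 and 2001 CPM. All of these had LN523 below LN323 in each lane with groups that overlapped, and the summed level of the list ran from 11140 to 13540 CPM on LN523 and from 13550 to 14710 CPM on LN323, ranges that meet without overlapping. On LN521 the sum was 15500 to 23900 CPM. Without lane 2 of LN523 the median of the list was -0.0098 and without lane 3 of LN523 it was -0.34, and the part of lane in this pattern was not tested.

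**Figure D4:**
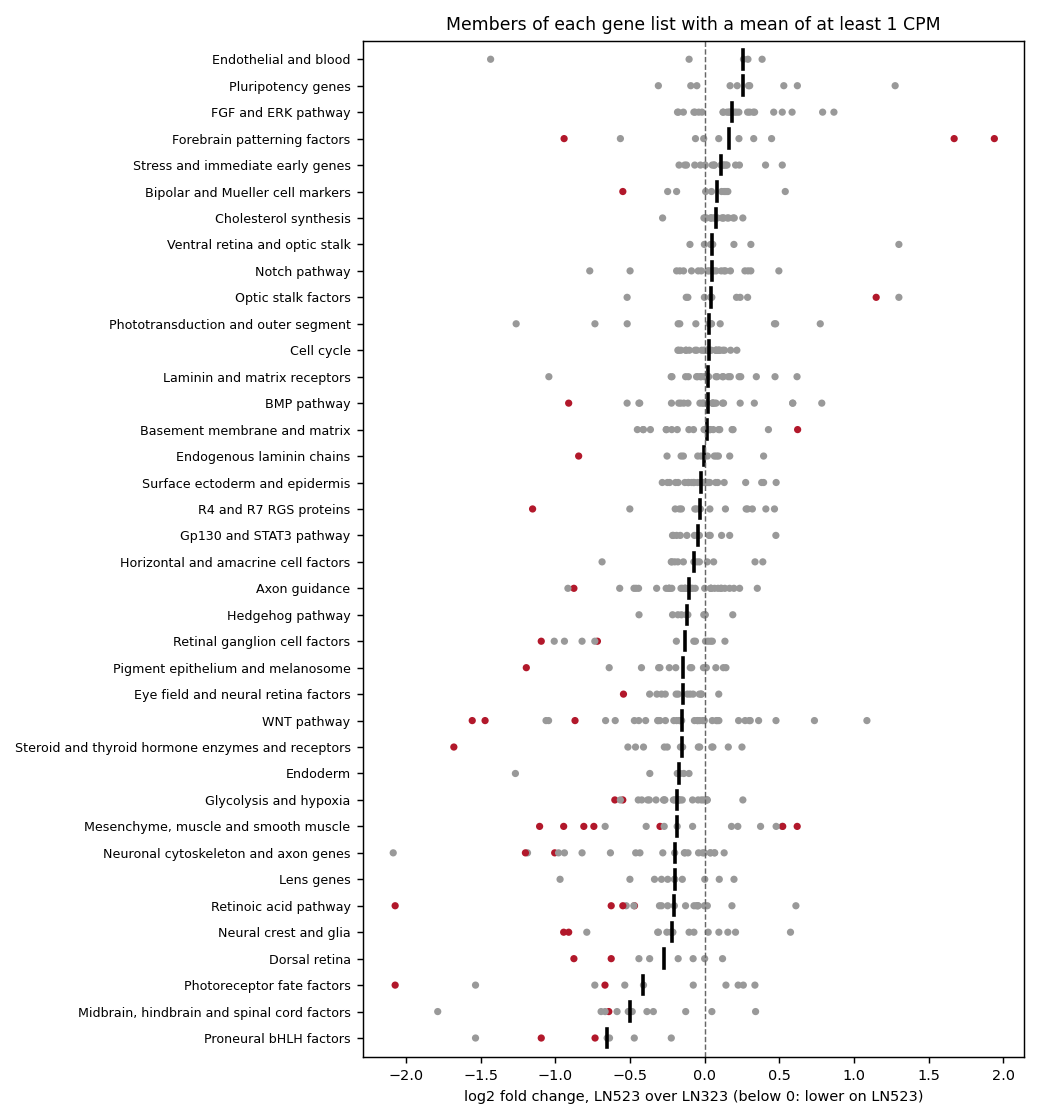
Log2 fold change of LN523 over LN323 for each list member with a mean of at least 1 CPM (points) and the median of each list (black bar), ordered by median, with red points for genes whose adjusted p was under 0.05 in the 6-library fit. The medians run from -0.65 for proneural factors to 0.26 for the endothelial list, and most bars lie close to the dashed line at 0.

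WNT pathway genes held 8 of 37 (21.6%) that were lower in every lane, 3 that were higher, and a median of -0.15, which was -0.030 without lane 1 of LN523 and -0.038 without lane 3 of LN323. WIF1, a secreted WNT inhibitor, was at 0.0965, 17.5 and 1.30 CPM on LN523 and at 5.45, 21.6 and 6.19 CPM on LN323 (log2 fold change -1.56, edgeR adjusted p = 1, and 8.1e-10 with 6 libraries). WNT2B, a ligand of the eye margin, was at 16.9, 171 and 9.84 CPM against 80.9, 88.2 and 24.7 CPM, lower in lanes 1 and 3 and higher in lane 2 (log2 fold change -0.87, 6-library edgeR adjusted p = 4.93e-05). With DKK2, 3 members passed with 6 libraries, and lane 2 was the high library of each on both laminins. The BMP list was split evenly, 12 above and 12 below 0, with 5 of 24 higher and 4 lower in every lane and a median of 0.02. FGF and ERK genes had 18 of 25 above 0 and a median of 0.18, and 3 were higher and 1 lower in every lane. Without lane 1 of LN323 that median was 0.0012, and without lane 2 of LN323 it was 0.35.

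The culture's own laminin chains did not move together: 6 of 12 were above 0 and 6 below, and the median was -0.0031. LAMA2, the α2 chain of muscle and nerve, was at 5.14, 23.3 and 5.38 CPM on LN523 and at 17.7, 22.0 and 12.7 CPM on LN323 (log2 fold change -0.84, edgeR adjusted p = 1, and 0.00755 with 6 libraries). Laminin and matrix receptors had a median of 0.02, with 4 of 24 (16.7%) higher and 1 lower in every lane. The 1 lower was ITGA4, a fibronectin receptor chain, at 2.27, 2.84 and 5.08 CPM against 10.5, 4.44 and 6.09 CPM. Basement membrane and matrix genes had a median of 0.02 and 1 member that passed with 6 libraries, FN1.

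No marker in the mesenchyme, neural crest and axon lists was called between the laminins in the 9-library test. Of the mesenchyme and muscle list, 5 members were lower and 2 higher with an adjusted p under 0.05 in the 6-library edgeR fit, and the median of 17 was -0.18, from -0.98 without lane 2 of LN523 to 0.10 without lane 1 of LN523. LUM, a proteoglycan of connective tissue, was at 7.96, 70.6 and 18.8 CPM on LN523 and at 36.7, 69.8 and 41.9 CPM on LN323, and TAGLN of smooth muscle was at 273, 89.1 and 132 CPM against 180, 49.5 and 121 CPM (6-library edgeR adjusted p = 2.46e-07 and 0.0345). The connective tissue gene was lower on LN523 in lanes 1 and 3 and the smooth muscle gene higher in every lane. The list summed to 3357 to 6338 CPM on LN523 and 4258 to 4566 CPM on LN323. Neural crest and glial markers had 13 of 18 below 0 and a median of -0.22 (from -0.52 without lane 2 of LN523 to 0.05 without lane 3 of LN323), with TWIST1 at 2.68, 27.4 and 4.61 CPM against 5.92, 31.3 and 15.4 CPM (6-library edgeR adjusted p = 0.00364). Neuronal cytoskeleton and axon genes had 18 of 23 below 0, 5 (21.7%) lower in every lane and a median of -0.20, and CNTN2, an axonal adhesion molecule, was at 1.25, 18.8 and 7.48 CPM against 3.35, 26.7 and 26.5 CPM (log2 fold change -1.20, 6-library edgeR adjusted p = 6.92e-05). Without lane 3 of LN323 the median of these axon genes was 0.11, and without lane 2 of LN523 it was -0.59. The part of these cells in the other differences was not tested.

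No member of the remaining lists was called in the 9-library test. Cell cycle genes had a median of 0.03 over 28 members, pigment epithelium genes -0.14 over 14, surface ectoderm genes -0.02 over 25, horizontal and amacrine factors -0.07 over 13, gp130 and STAT3 genes -0.05 over 13, Hedgehog genes -0.12 over 10, axon guidance genes -0.11 over 35 and bipolar and Mueller cell markers 0.08 over 10. Lens genes had a median of -0.20 over 11, endoderm markers -0.17 over 6, pluripotency genes 0.26 over 10 and endothelial and blood markers 0.26 over 5. Of these 4, only the lens median kept its sign with each of the 6 libraries left out, and the endothelial median ran from -0.37 to 0.47. Cholesterol synthesis genes had 16 of 18 above 0 with a median of 0.08, and stress genes 14 of 19 with 0.11. The largest of these lists, axon guidance, had 6 of 35 (17.1%) lower and 2 higher in every lane.

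The difference between the laminins was followed to day 32. RXRG was at 17.8 ± 2.35 CPM on LN523 and 31.1 ± 22.2 CPM on LN323 at day 32 (SD, n = 3), with a log2 fold change of -0.35, and at day 2 it was near 0 on both. SRD5A2 reached 131 ± 125 CPM on LN523 and 128 ± 130 CPM on LN323 at day 32, a log2 fold change of 0.16. RGS8 was at 34.8 ± 16.1 CPM on LN523 and 43.1 ± 28.3 CPM on LN323. None of the 3 differed at day 32 in edgeR (adjusted p = 1 each). The change between the days was itself tested in the 18 libraries of days 22 and 32, and it did not pass for RXRG (interaction log2 -1.73, edgeR adjusted p = 1), SRD5A2 (-1.85, adjusted p = 0.755) or RGS8 (-1.02, adjusted p = 1). Of 42336 genes 1 passed that test, VXN (named after its values were seen), and 652 had an unadjusted p under 0.05. ATOH7, HES6, DLL4 and the photoreceptor retinoid carrier RBP3 had fitted log2 fold changes below 0 at day 22 and above 0 at day 32. At day 32 these were 1.23, 1.75, 1.70 and 2.04. Their interaction did not pass (edgeR adjusted p = 0.0757, 0.0917, 0.0931 and 0.0917). HES6 was higher on LN523 in lane 1 at day 22. Other members of their lists are not given at day 32, so these genes do not stand for the lists.

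**Figure D5:**
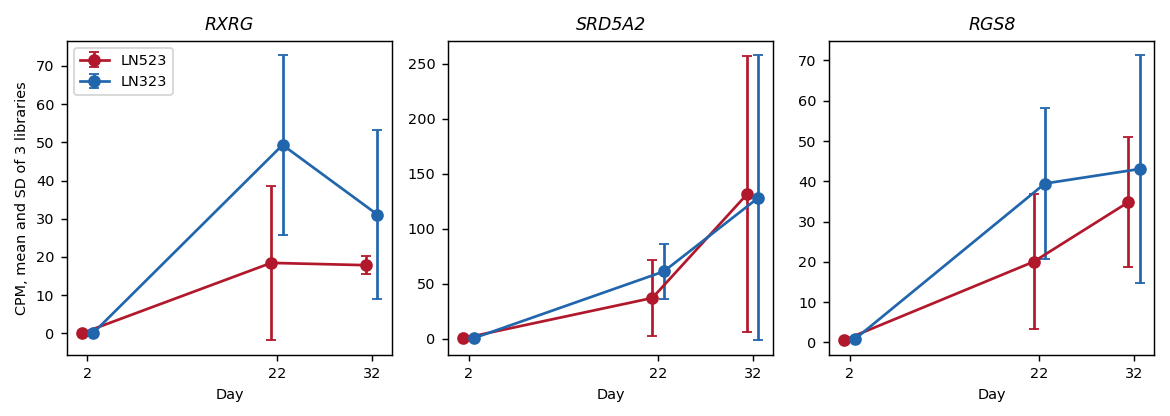
Mean CPM with SD (bars, 3 libraries) of RXRG, SRD5A2 and RGS8 on LN523 (red) and LN323 (blue) at days 2, 22 and 32. At day 22 the mean of RXRG was 18.4 CPM on LN523 and 49.3 CPM on LN323. For all 3 genes the bars of the laminins overlap at day 22 and at day 32.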

How the data were processed

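Libraries were prepared from total RNA with a stranded kit after removal of ribosomal RNA and read as 150-base pairs. Per the labels and the study's methods, the authors trimmed reads with cutadapt, aligned them to GRCh38 (hg38) with STAR 2.5.2b and counted genes with featureCounts 1.5.1, leaving out ribosomal and mitochondrial genes. The deposited counts per gene are raw, and 68.9% of non-zero values at day 22 are even. The deposited TPM values were used only for alternatives and to choose abundant genes. Names and coordinates came from GENCODE 44, which named 43052 of 44852 genes.

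Genes with more than 1 count in sum over the 9 libraries of day 22 were fitted in edgeR 4.0.16 (R 4.3.3) with TMM factors, a term for each laminin and lane as a block, and p-values were adjusted by Benjamini-Hochberg over all genes tested. CPM use TMM-scaled library sizes. Within lanes, deviations of LN523 and LN323 from their group means correlated at r = 0.53, 0.79 and 0.45 (across 16538 genes, which are not independent). Lane 1 of LN521 correlated at -0.15 with LN523 and -0.23 with LN323. Deviations cancel within a group, so the distant lane 2 libraries also bear on r in lanes 1 and 3. By distance the lane 1 libraries (0.488 log2 units apart) were not nearest each other. Lane 1 of LN323 was nearer lane 3 of LN523 (0.411). DESeq2 1.42.0 and limma 3.58.1 on log2(TPM + 1) and log2(TPM + 0.1) were alternatives. The fits were tested on simulated data.

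The comparison, the 36 gene lists and 2 added ones were chosen with earlier results of these data known. Genes were named where the adjusted p was under 0.05, among the 10 smallest p in each direction with one sign in every lane and a mean of at least 1 CPM, among the 3 smallest p or the 3 highest TPM of each list, or as markers of the labelled cells. Some genes that this rule names are not reported here.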

Additional observations from a re-analysis of the deposited data

Results flagged for a closer look

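VXN, a gene of neurogenesis in the early nervous system, stands out because its difference between LN523 and LN323 changed between day 22 and day 32 in the test of that change. At day 22 it had 38, 32 and 26 counts in LN523 lanes 1, 2 and 3 (0.917, 0.785 and 0.768 CPM) and 36, 110 and 94 counts in LN323 (1.40, 2.57 and 2.31 CPM). At day 32 it was at 57.2, 30.6 and 10.7 CPM on LN523 and at 5.71, 16.0 and 3.71 CPM on LN323. Every LN523 library of VXN lay below every LN323 library at day 22, and at day 32 it was higher on LN523 within each lane while the groups overlapped. The log2 fold change of LN523 over LN323 at day 22 minus that at day 32 was -3.25 (edgeR interaction, adjusted p = 0.0109), from -1.45 at day 22 and 1.78 at day 32, neither of which passed its own test (edgeR adjusted p = 1 and 0.499). Across the alternatives the adjusted p ran from 9.62e-17 with 12 libraries to 1 after filterByExpr. ATOH7, HES6, DLL4 and RBP3 had the same pair of fitted signs and did not pass, although HES6 was higher on LN523 in lane 1 at day 22. How many of all genes had this pair of signs was not counted.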

How the results depend on the processing

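At day 22 the count of 5 genes was 7 with 27 libraries. It was 2 with RLE factors, 98 with 6 libraries and a replicate block, and 547 with DESeq2 without a prior, 543 of which were above 0 in 3 libraries or fewer. Of the 5 called genes only RGS8 (adjusted p = 0.0215) was among those 547, with RXRG at 0.228 and SRD5A2, VAX1 and FEZF1-AS1 at 1 in DESeq2. The count was 0 with the other settings planned: DESeq2 with a prior (156 at an unadjusted p under 0.05), edgeR with filterByExpr (193) or at least 10 counts in every library (136), edgeR with no replicate block on 9 (447) or 6 libraries (329), and limma on log2(TPM + 1) (1154) and log2(TPM + 0.1) (1439). Leaving out each of the 6 libraries gave 0 to 223. Settings added after seeing the data gave 66 without lane 2, 50 without LN521 replicate 1, 181 with 6 libraries without lane 2, and 0 with 6 libraries under filterByExpr (433 in edgeR) or at least 10 counts (368). Lane differences numbered 2830 with RLE, 1 with filterByExpr and 5905 with 6 libraries. The test between days gave 321 genes with 12 libraries, 0 with no replicate block (934 in edgeR) and 0 with filterByExpr (344). The cause of these changes was not tested.

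The signs of the 5 called genes held in every setting that gave a value, with log2 fold changes from -2.68 to -0.56 for RXRG, -2.47 to -0.23 for SRD5A2, -1.64 to -0.76 for RGS8, 0.27 to 2.59 for FEZF1-AS1 and 0.072 to 8.62 for VAX1. Of their tests under other settings, 29 kept and 65 lost the call. Among the other named genes, signs reversed 9 times. WNT2B was at 0.033 with no replicate block and at 0.023 with no replicate block and 6 libraries. With each library left out in turn, WNT2B ran from -1.91 to 0.47, TBX5 from -0.84 to 0.33 and ALDH1A1 from -1.09 to 0.20, each above 0 without LN323 replicate 1, and TBX5 also without LN523 replicate 3. SNCG ran from -1.56 to 0.094, HES6 from -1.30 to 0.28 and CNTN2 from -2.33 to 0.13, each above 0 without LN323 replicate 3. In these fits the partner of the library left out stayed in, with only LN521 beside it in that lane. The part of LN521 in these changes was not tested.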
